A study of Homo sapiens with 12 samples.

Results

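The 10 genes described here encode heat shock proteins of the cytosol and the mitochondrion: HSPA1A, HSPA1B, HSPA8, HSPH1, HSP90AA1, HSP90AB1, DNAJB1, HSPD1, HSPE1 and HSPB1. They were taken by symbol from a table of read counts for 25435 gene symbols, and each of the 10 was found there and was among the 13365 genes that passed the filter on low counts. The counts came from RNA sequencing of LMSU, a human gastric cancer line labelled as carrying mutant p53 (R175H), in 12 libraries that form 6 groups of 2. The knockout arm, labelled without doxycycline, held a control construct named V2 (labelled as keeping p53 R175H) and a construct named sg-1 (labelled as lacking it), both with the name GFP. The knockdown arm, labelled with doxycycline, held a scramble hairpin and a vector (both labelled as keeping p53 R175H) and the p53 hairpins shRNA 1 and shRNA 2 (both labelled as lacking it). The knockout is represented by 1 guide construct, and the labels do not say whether its cells were 1 clone or a pool. The labels name no separate cultures behind the 2 libraries of a group, so p-values measure the spread between libraries, which may be technical.

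Heat shock proteins are chaperones, which hold unfolded or partly folded proteins and help them to reach or regain their shape. HSP70 proteins bind short stretches of client protein in a cycle that J-domain proteins start and nucleotide exchange factors end, and HSP90 proteins take over clients at a later stage of folding. In the mitochondrion the HSP60 barrel and its HSP10 lid enclose the client, and in the cytosol small heat shock proteins hold unfolded proteins without using ATP. Heat and other protein damage release the transcription factor HSF1, which binds heat shock elements, inverted repeats of the unit GAA, in the promoters of many of these genes. Mutant p53 of the R175H kind is misfolded and is a known client of HSP70 and HSP90.

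Promoter sequences are shown for 5 of the genes because they carry the element that the heat shock genes are known for. RefSeq (GRCh38.p14) gave promoter windows for all 10 genes, 16 windows in all, each with 250 bases before and 50 bases after a transcript start. The authors' processing used hg19, so these coordinates belong to the RefSeq build and not to the count table. Printed below are the 250 bases before the start, 5′ to 3′ on the strand of the gene, with matches to a heat shock element of 2 or more units in capitals. They are HSPA1A (chr6:31815293-31815542, plus strand), HSPA1B (chr6:31827488-31827737, plus strand), HSPA8 (chr11:123062137-123062386, minus strand), HSP90AA1 (chr14:102087045-102087294, minus strand) and HSP90AB1 (chr6:44247693-44247942, plus strand). For HSP90AA1 and HSP90AB1, which have several starts, the window with the most matches was taken.
HSPA1A: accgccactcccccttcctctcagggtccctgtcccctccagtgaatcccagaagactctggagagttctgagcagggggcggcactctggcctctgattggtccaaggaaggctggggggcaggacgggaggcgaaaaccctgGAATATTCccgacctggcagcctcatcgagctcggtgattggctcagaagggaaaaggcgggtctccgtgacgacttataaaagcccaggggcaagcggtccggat
HSPA1B: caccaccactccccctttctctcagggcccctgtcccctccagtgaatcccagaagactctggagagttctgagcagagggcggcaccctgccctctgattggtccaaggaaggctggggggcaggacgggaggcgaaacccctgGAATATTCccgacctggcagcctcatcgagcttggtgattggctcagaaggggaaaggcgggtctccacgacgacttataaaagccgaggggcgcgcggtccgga
HSPA8: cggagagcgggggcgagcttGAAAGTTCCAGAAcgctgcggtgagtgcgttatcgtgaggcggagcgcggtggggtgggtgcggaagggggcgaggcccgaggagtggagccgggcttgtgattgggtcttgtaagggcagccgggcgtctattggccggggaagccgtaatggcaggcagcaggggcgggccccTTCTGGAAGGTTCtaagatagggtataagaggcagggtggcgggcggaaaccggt
HSP90AA1: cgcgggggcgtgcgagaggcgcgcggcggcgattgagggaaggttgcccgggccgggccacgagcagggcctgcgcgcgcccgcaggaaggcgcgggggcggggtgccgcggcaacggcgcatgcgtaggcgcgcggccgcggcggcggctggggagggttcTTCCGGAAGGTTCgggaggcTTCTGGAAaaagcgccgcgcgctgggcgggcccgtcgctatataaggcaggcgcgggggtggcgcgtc
HSP90AB1: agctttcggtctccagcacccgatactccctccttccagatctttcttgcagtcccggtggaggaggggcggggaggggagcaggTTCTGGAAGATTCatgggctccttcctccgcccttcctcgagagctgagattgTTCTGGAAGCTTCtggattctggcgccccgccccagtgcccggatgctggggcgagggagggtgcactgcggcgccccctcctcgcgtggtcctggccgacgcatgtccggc

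The element with 2 units was searched as GAANNTTC or TTCNNGAA, in which N is any base, and that with 3 units as either of these followed, after any 2 bases, by a further GAA or TTC in inverted orientation, each on both strands. Every match with 3 units holds overlapping matches with 2 units. HSPA1A and HSPA1B have 1 match with 2 units each, and the 301 aligned columns of their windows are 92.03% identical. HSPA8 and HSP90AB1 have 2 matches with 3 units each, and HSP90AA1 has 1, with a further match of 2 units nearer to the start. An element with 2 units was found for 8 of the 10 genes (9 of 16 windows), against 13.49% of the 35116 RefSeq windows of this length. The element with 3 units was found for 4 genes (4 of 16 windows), HSPA8, HSP90AA1, HSP90AB1 and HSPD1, against 0.4898% of all windows. A gene with several windows has more chances of a match, so the shares of all windows are to be read against the counts of windows. HSPH1 and HSPE1 had no match in their windows. The letters TATAAA were found, among the 10 genes, for HSPA1A and HSPA1B only (2 of 16 windows, against 11.53% of all windows). CCAAT was found for 5 genes (7 of 16 windows, against 34.61%) and GGGCGG for 9 (15 of 16 windows, against 44.95%), each searched on both strands. HSPD1 and HSPE1 lie head to head: the start of the first HSPD1 window is 105 bases from that of HSPE1, and these windows share 204 bases. The other HSPD1 start is 539 bases away, its window shares 0 bases with that of HSPE1, and it is this window that holds the HSPD1 matches. These matches describe the letters in the windows and say nothing of whether a factor was bound.

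**Figure D1:**
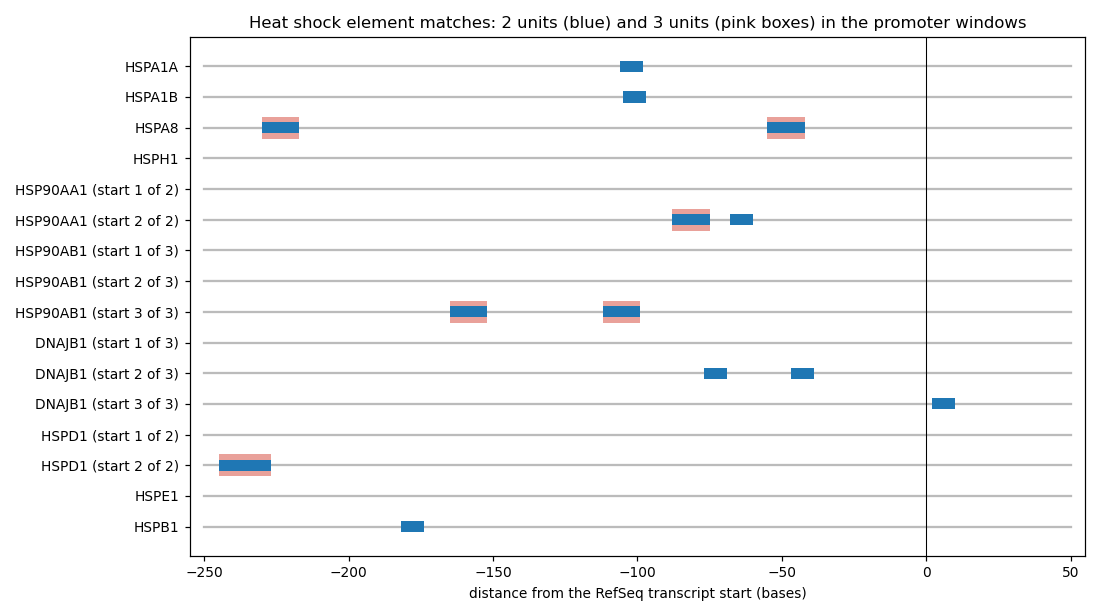
Positions of heat shock element matches in the 16 RefSeq promoter windows of the 10 genes; the x axis is the distance from the transcript start in bases, grey lines are the windows, blue boxes are matches with 2 units and pink boxes matches with 3 units. Matches with 3 units appear for HSPA8, HSP90AA1, HSP90AB1 and HSPD1, and no match appears for HSPH1 and HSPE1.

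Library totals ran from 9738094 to 16823246 counts. The biological coefficient of variation, edgeR's measure of the spread between libraries of a group, was 9.55% over the 12 libraries, but 15.6% when the knockout arm was fitted alone and 3.08% for the knockdown arm. The 2 libraries of the knockout control stood furthest apart: the median difference between them over the 10 genes was 0.28 on the log2 scale, against 0.10 in the knockout and 0.03 to 0.04 in the groups of the knockdown arm. Of the defining epithelial markers EPCAM, CDH1 and KRT19 had at most 4 counts in any library, while KRT8 and KRT18 were expressed. Of the gastric markers TFF1, TFF2 and GKN2 had 0 counts in all 12 libraries, and CLDN18 had at most 10. The immune marker PTPRC had at most 3 counts and the endothelial marker CDH5 had 0, while the immune list was carried by CD68. The summed level of 10 fibroblast markers was 10066 to 12543 CPM in the knockout arm and 28408 to 34600 CPM in the knockdown arm. In bulk RNA, fewer cells of a type and less RNA per cell cannot be told apart.

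Levels below are CPM, counts brought to a common library total, after TMM scaling, which adjusts library totals on the assumption that most genes do not change. HSPA1A and HSPA1B encode the stress-inducible HSP70 and are near-identical copies. HSPA1A was at 143 and 108 CPM in the knockout control and at 101 and 118 CPM in the knockout. In scramble HSPA1A was at 23.1 and 22.6 CPM, against 18.7 and 19.7 under shRNA 1, 18.2 and 18.2 under shRNA 2 and 18.6 and 17.6 in the vector group. The 4 libraries of the knockout arm were thus all far above the other 8, and the control and the knockout overlapped. HSPA1B was at 115 and 86.2 CPM in the knockout control and at 87.8 and 93.9 CPM in the knockout. In scramble HSPA1B was at 17.5 and 18.4 CPM, against 16.1 and 13.7 under shRNA 1, 15.4 and 15.4 under shRNA 2 and 11.8 and 11.6 in the vector group. Again the arms were far apart, and the vector libraries lay below all others. HSPA1A took between 53.6% (exact binomial 95% interval 51.6% to 55.5%, first knockout library) and 61.1% (56.2% to 65.9%, first vector library) of the summed counts of the pair, and these intervals cover counting error only. Of the 50-base stretches of the HSPA1A transcript, 72.6% also occur in another gene, so how reads were split between the copies is uncertain.

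HSPA8 encodes the HSP70 that cells make at all times. It was at 1911 and 1669 CPM in the knockout control and at 1646 and 1745 CPM in the knockout. In scramble HSPA8 was at 606 and 590.5 CPM, against 507 and 519 under shRNA 1, 699 and 721 under shRNA 2 and 309.7 and 316 in the vector group. The 4 groups of the knockdown arm did not overlap, with vector lowest and shRNA 2 highest. HSPH1 encodes HSP110, an exchange factor that releases clients from HSP70. It was at 314 and 385 CPM in the knockout control and at 362 and 338 CPM in the knockout. In scramble HSPH1 was at 89.8 and 87.2 CPM, against 84.9 and 91.1 under shRNA 1, 85.3 and 85.9 under shRNA 2 and 57.2 and 52.0 in the vector group. The shRNA 1 libraries lay on either side of those of scramble and shRNA 2, and vector lay below them all.

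HSP90AA1 encodes the inducible cytosolic HSP90. It was at 1979.8 and 1982 CPM in the knockout control and at 1813 and 1791 CPM in the knockout. In scramble HSP90AA1 was at 479.5 and 479.6 CPM, against 479 and 477 under shRNA 1, 313 and 299 under shRNA 2 and 456 and 463 in the vector group. Its shRNA 2 libraries were the lowest of the 12, and no groups of HSP90AA1 overlapped. HSP90AB1 encodes the constitutive cytosolic HSP90 and had the highest level of the 10 genes. It was at 3275 and 2737 CPM in the knockout control and at 2757 and 2903 CPM in the knockout. In scramble HSP90AB1 was at 2471 and 2495 CPM, against 2338 and 2269 under shRNA 1, 2305 and 2314 under shRNA 2 and 2203 and 2250.3 in the vector group. The lowest and highest group means of HSP90AB1 differed by 1.35-fold, against 6.47-fold for HSP90AA1.

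DNAJB1 encodes HSP40, a J-domain protein that starts the HSP70 cycle. It was at 155 and 123 CPM in the knockout control and at 124 and 139 CPM in the knockout. In scramble DNAJB1 was at 59.6 and 55.5 CPM, against 54.5 and 53.4 under shRNA 1, 67.0 and 64.4 under shRNA 2 and 63.5 and 60.2 in the vector group. The knockdown-arm groups of DNAJB1 lay close together, and all were below the knockout arm.

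HSPD1 and HSPE1 encode the mitochondrial HSP60 and HSP10. HSPD1 was at 571 and 549.9 CPM in the knockout control and at 551 and 567 CPM in the knockout. In scramble HSPD1 was at 313 and 303 CPM, against 280.3 and 269 under shRNA 1, 281 and 288 under shRNA 2 and 289 and 286 in the vector group. HSPE1 was at 48.8 and 41.6 CPM in the knockout control and at 42.6 and 47.5 CPM in the knockout. In scramble HSPE1 was at 8.895 and 9.81 CPM, against 10.2 and 10.1 under shRNA 1, 11.05 and 9.85 under shRNA 2 and 8.07 and 7.92 in the vector group. The highest and lowest group means differed by 5.65-fold for HSPE1 and by 2.04-fold for HSPD1. Of the 50-base stretches of the HSPE1 transcript, 52.9% also occur, on either strand, in another gene. HSPD1 itself shares the most (25.75%). How reads of these stretches were counted is not known, so the HSPE1 counts are uncertain. The read-through symbol HSPE1-MOB4 had 0 counts in every library.

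HSPB1 encodes HSP27, a small heat shock protein. It was at 583 and 389.5 CPM in the knockout control and at 393 and 479 CPM in the knockout. In scramble HSPB1 was at 463 and 439 CPM, against 401 and 405 under shRNA 1, 406 and 432 under shRNA 2 and 561 and 531 in the vector group. Its 2 knockout control libraries were the highest and the lowest of the 12, and its arms overlapped.

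Per kilobase of transcript, HSP90AB1 had the highest level of the 10 genes in every group, from 833 CPM per kilobase in vector to 1124 in the knockout control. In the knockout control HSPA8 (727), HSP90AA1 (586) and HSPB1 (535) came next on this scale, and HSPA1B (39.9) was lowest. In vector HSPB1 (601) came next, then HSP90AA1 (136), HSPA8 (127) and HSPD1 (117), and HSPA1B (4.65) was again lowest. How reads of shared stretches were counted is not known, so low ranks are uncertain. Of the 50-base stretches, 73.5% (HSPA1B), 72.6% (HSPA1A) and 52.9% (HSPE1) also occur in another gene. Together the 10 genes took 0.885% to 0.957% of the counts of a library in the knockout arm and 0.381% to 0.433% in the knockdown arm.

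**Figure D2:**
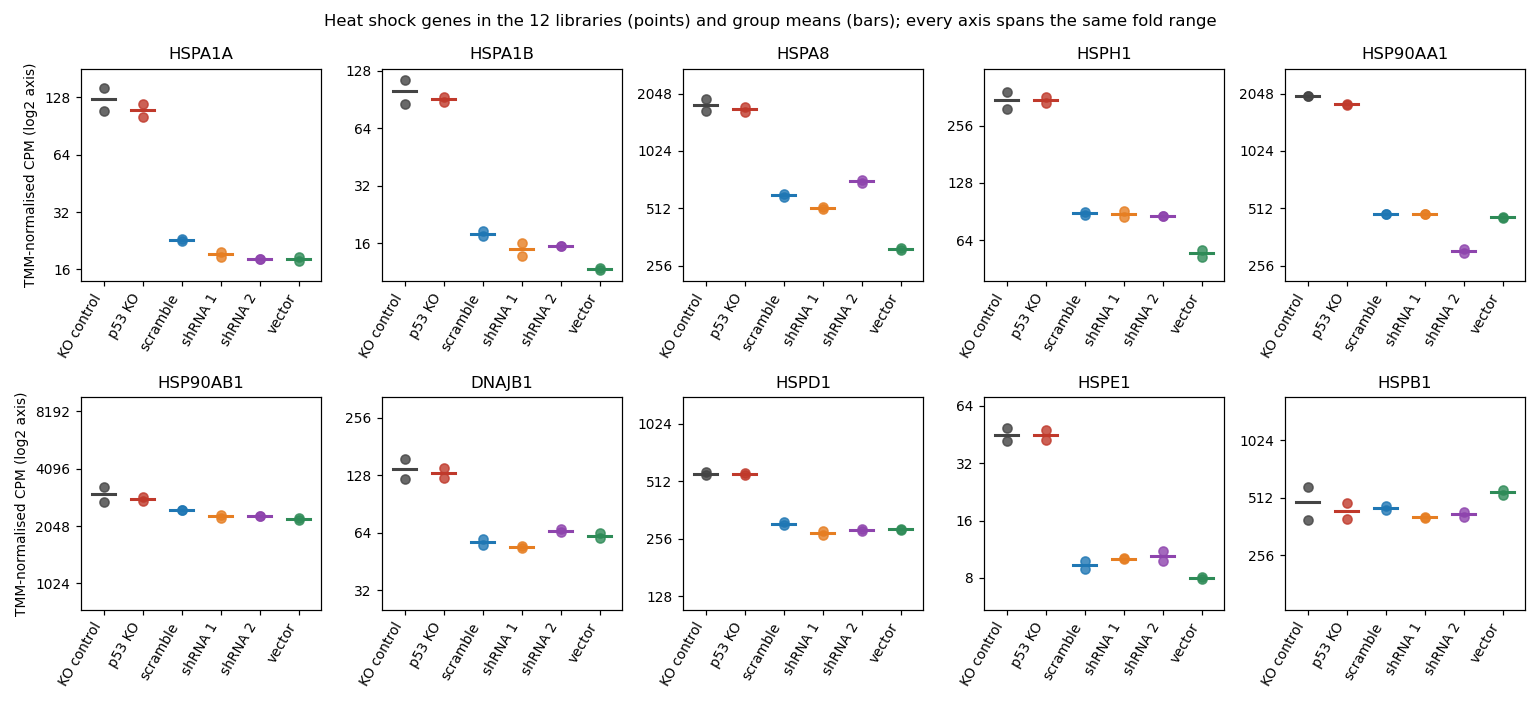
TMM-normalised CPM (log2 axis, the same fold range in every panel) of the 10 genes; points are the 12 libraries and bars the group means (KO control and p53 KO are the groups of the knockout arm). HSPA1A runs from 17.6 to 143 CPM, with the 4 knockout-arm libraries far above the other 8, while HSPB1 shows no such gap.

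The knockout control and the controls of the knockdown arm are the same line labelled as keeping p53, and their comparison shows how far the arms differ before any loss of p53. Of the 10 genes, 9 were higher in the knockout control than in the mean of scramble and vector and 0 were lower (edgeR quasi-likelihood test, Benjamini-Hochberg adjusted p below 0.05). Among all 13365 genes tested, 34.8% were called higher and 33% lower in this comparison. The median of the 10 log2 differences was 2.06, against 0.02 over all genes. The arms differ in construct, in the doxycycline label and possibly in culture and handling, and these cannot be told apart.

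The inducible HSP70 copies had the largest differences of the 10 genes, and HSPE1 the next. HSPA1B was 6.94-fold higher (log2 difference 2.79, SE 0.11, adjusted p 3.1e-09) and HSPA1A 6.17-fold higher (2.63, SE 0.11, adjusted p 3.9e-09). HSPH1 was 5.02-fold higher (2.33, SE 0.09), HSPA8 4.14-fold higher (2.05, SE 0.07) and DNAJB1 2.33-fold higher (1.22, SE 0.10). The HSP90 genes differed from each other: HSP90AA1 was 4.22-fold higher (2.08, 95% interval 1.95 to 2.20) and HSP90AB1 1.28-fold higher (0.35, 95% interval 0.19 to 0.52, adjusted p 0.0014). Of the mitochondrial pair, HSPE1 was 5.23-fold higher (2.39, 95% interval 2.16 to 2.61) and HSPD1 1.89-fold higher (0.91, 95% interval 0.78 to 1.05). HSPB1 did not pass the test (-0.03, 95% interval -0.32 to 0.26, adjusted p 0.86). Its value depended on the control library kept: it was 0.23 without the second knockout control library and -0.36 without the first. Each of these fits leaves a lone knockout control library, so its calls are not read.

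**Figure D3:**
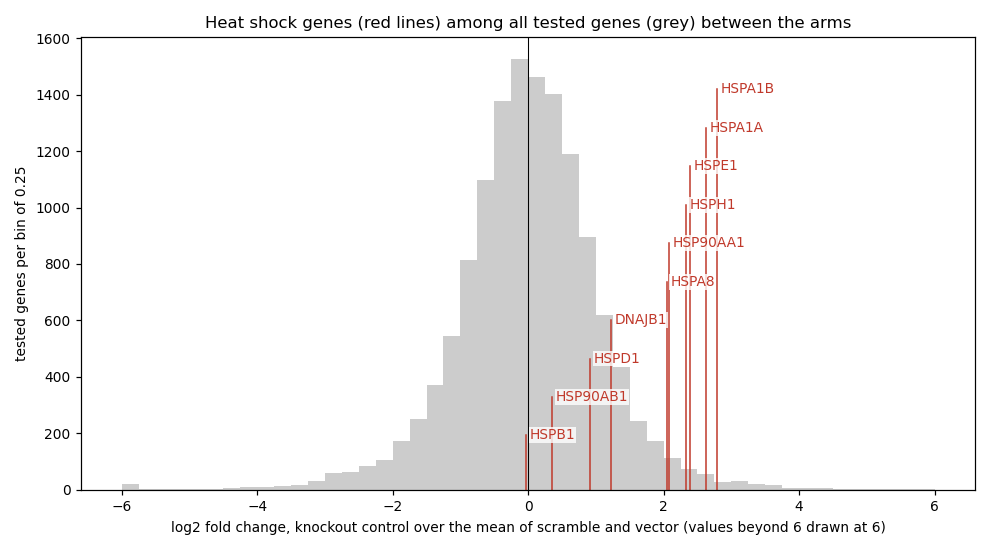
Histogram of the log2 difference between the knockout control and the mean of scramble and vector over all tested genes (grey, genes per bin of 0.25, values beyond 6 drawn at 6), with the 10 heat shock genes as red lines whose height has no meaning. The line of HSPA1B is furthest to the right at 2.79, and that of HSPB1 is at -0.03.

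Other genes of the pathway were taken from lists chosen with earlier results of these data known. Of 91 tested genes in 8 such chaperone lists, 61 were higher and 14 lower in the knockout control than in the mean of scramble and vector, with a median of 0.53. The shares over all genes, 34.8% higher and 33% lower, stand beside this count and those of the single lists that follow. Of 16 HSP90 co-chaperones, 13 were higher and 2 lower, among them AHSA1, the activator of the HSP90 ATPase (1.72) and STIP1, which links HSP70 to HSP90 (1.46). Of 8 other HSP70 and HSP110 genes, 6 were higher and 2 lower, with HSPA2 at 2.34, HSPA4L at 1.97 and HSPA14 at 1.38. HSPA6, which cells make almost only under stress and which was singled out after its values were seen, was at 1.33 CPM in the knockout control and 0.28 CPM in scramble, with at most 26 counts in any library. Of 16 J-domain genes, 9 were higher and 4 lower, among them DNAJC9 (2.22), DNAJA1 (1.80) and DNAJB2 (-1.23). Of 19 mitochondrial chaperones and proteases, 15 were higher and 0 lower, among them HSPA9, the mitochondrial HSP70 (0.89), and the protease gene LONP1 (1.39). Of 15 genes of the TRiC chaperonin and prefoldin, 12 were higher and 1 lower, with CCT5 at 1.51. Of 9 nucleotide exchange and related genes, 3 were higher and 1 lower, with BAG3 at 0.41, so the share called higher was near that of all genes. HSPB8 (2.01) and HSPB11 (1.25) were higher and HSPB6 (-1.08) lower among the 3 tested of 8 genes put on the small heat shock list.

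HSF1, the regulator itself, did not share this direction: it was at 232 CPM in the knockout control and at 298 CPM in scramble and 293 CPM in vector, a difference of -0.35 (SE 0.10, adjusted p 0.0069). HSF2 (-0.71) and HSF4 (-1.63) were lower too, and HSBP1, which binds HSF1, was higher (0.79), so that 1 of 5 genes of the HSF list was higher and 3 were lower. Of 16 tested immediate early and acute stress genes, 7 were higher and 6 lower, near the shares of all genes. EGR1 (-3.32) and ZFP36 (-2.23) were lower, and JUN (1.55) and GADD45A (1.07) were higher. All 10 fibroblast markers were lower in the knockout control, with a median of -2.53, and the part of these other differences in those of the heat shock genes was not tested.

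**Figure D4:**
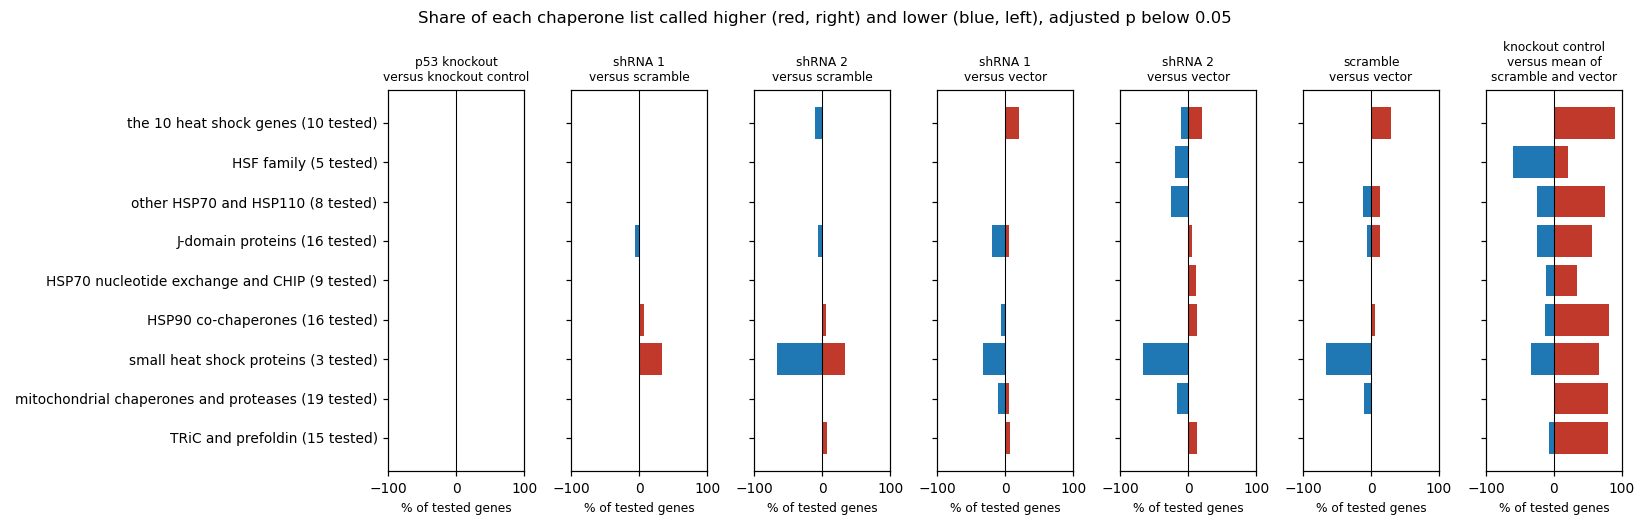
Share of the tested genes of each chaperone list called higher (red, to the right) and lower (blue, to the left) at an adjusted p below 0.05, in percent, in 7 comparisons. The knockout panel is empty, and in the comparison of the arms 13 of 16 HSP90 co-chaperones and 15 of 19 mitochondrial genes lie to the right.

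The knockout comparison asks what changed with the construct that targets p53. None of the 10 heat shock genes was called higher or lower in the knockout by edgeR, and 0 of 10 had an unadjusted p below 0.05. Among all genes, 0.00748% were called higher and 0.00748% lower, and 859 had an unadjusted p below 0.05. DESeq2 and limma-voom also called 0 of the 10, as did a fit to the 4 libraries of the knockout arm alone, in which 0% of 12776 genes were called. The log2 differences ran from -0.20 to 0.004, with a median of -0.08 against -0.01 over all genes. HSPA1A stood at -0.20 (95% interval -0.47 to 0.08) and HSPA1B at -0.15 (-0.42 to 0.12). HSP90AA1 stood at -0.14 (-0.29 to 0.01, unadjusted p 0.069 in edgeR, adjusted p 0.78). In the edgeR fit to the knockout arm alone, whose spread was larger, HSP90AA1 stood at -0.12 (SE 0.14, unadjusted p 0.41). The constitutive genes HSPA8 (-0.08, 95% interval -0.26 to 0.10) and HSP90AB1 (-0.09, -0.28 to 0.11) and the mitochondrial HSPD1 (-0.004, -0.16 to 0.15) were not called either. HSPH1 (0.004), DNAJB1 (-0.08), HSPE1 (-0.006) and HSPB1 (-0.16) had intervals that included 0, as all 10 genes did.

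The result of the knockout comparison depended on the control library kept. Without the second knockout control library, HSPA1A stood at -0.39, HSPA1B at -0.34, HSP90AB1 at -0.21 and HSPB1 at -0.42. Such a fit takes the lone control library to vary like the other groups, so its calls are not read. Without the first knockout control library, HSPA1A stood at 0.03. The chaperone lists held 91 tested genes, of which edgeR, DESeq2 and limma-voom each called 0 in the knockout. In the same order 2, 2 and 3 of them had an unadjusted p below 0.05, against 859 of all 13365 genes in edgeR. HSF1 stood at -0.06 (adjusted p 0.88).

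The hairpin comparisons ask what changed when p53 was lowered by RNA interference in libraries labelled with doxycycline. Against scramble, shRNA 1 changed none of the 10 genes at an adjusted p below 0.05, in edgeR, DESeq2 and limma-voom alike. In edgeR 2 of the 10 had an unadjusted p below 0.05, as had 3123 of all 13365 genes tested. Among all genes 4.4% were called higher and 5.01% lower. HSPA8 stood at -0.22 (95% interval -0.40 to -0.04, adjusted p 0.12) and HSPD1 at -0.16 (-0.32 to -0.01, adjusted p 0.19). The fit to the 8 libraries of the knockdown arm, whose spread was smaller, called 4 of the 10 lower and called 33.2% of all genes: HSPA8 (-0.22), HSP90AB1 (-0.10), HSPD1 (-0.16) and HSPB1 (-0.16). In the fit to all libraries HSP90AA1 stood at -0.01 (-0.16 to 0.15) and HSPH1 at -0.01 (-0.24 to 0.22). HSPA1A (-0.25), HSPA1B (-0.26), HSP90AB1 (-0.11), DNAJB1 (-0.09), HSPE1 (0.11) and HSPB1 (-0.16) completed the 10 in that fit.

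With shRNA 2 against scramble, 1 of the 10 was called, in a comparison that called 3.58% of all genes higher and 4.15% lower. HSP90AA1 fell by 0.65 on the log2 scale (SE 0.07, adjusted p 3.1e-04), to 0.638 of its scramble level. It stood at -0.69 to -0.62 when 1 library was left out. HSPA8 stood at 0.25 (95% interval 0.07 to 0.43, adjusted p 0.096) and HSPA1A at -0.33 (-0.65 to -0.01, adjusted p 0.21). The other 7 were HSPA1B (-0.22), HSPH1 (-0.05), HSP90AB1 (-0.10), DNAJB1 (0.19), HSPD1 (-0.11), HSPE1 (0.16) and HSPB1 (-0.10). The fit to the knockdown arm alone called 5 of the 10 and 31.5% of all genes: HSP90AA1 (-0.64), HSPA1A (-0.32) and HSP90AB1 (-0.10) lower, and HSPA8 (0.25) and DNAJB1 (0.20) higher.

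Against vector, HSPA8 and HSPH1 were higher with either hairpin. With shRNA 1, HSPA8 was 1.64-fold higher (log2 difference 0.71, SE 0.08, adjusted p 3.0e-04) and HSPH1 1.61-fold higher (0.69, SE 0.11, adjusted p 0.0019). These were 2 of the 10, in a comparison that called 5.78% of all genes higher and 7.26% lower. With shRNA 2, HSPA8 was 2.27-fold higher (1.18, SE 0.08, adjusted p 3.5e-06) and HSPH1 1.57-fold higher (0.65, SE 0.11, adjusted p 0.0012), while HSP90AA1 fell by 0.59 (SE 0.07, adjusted p 1.3e-04). These were 3 of the 10, in a comparison that called 9.21% of all genes higher and 11.7% lower. HSPB1 stood at -0.44 with shRNA 1 (adjusted p 0.087) and at -0.38 with shRNA 2 (adjusted p 0.11). Not called with shRNA 1 either were HSPA1A (0.08), HSPA1B (0.35), HSP90AA1 (0.06), HSP90AB1 (0.05), DNAJB1 (-0.20), HSPD1 (-0.07) and HSPE1 (0.34). The same held with shRNA 2 for HSPA1A (0.01), HSPA1B (0.39), HSP90AB1 (0.05), DNAJB1 (0.09), HSPD1 (-0.01) and HSPE1 (0.39). Fibroblast markers moved in these comparisons too: 6 of 10 were higher and 1 lower with shRNA 1, and 6 were higher and 2 lower with shRNA 2. Among them DCN stood at 2.14 and 3.09 and LUM at 1.19 and 2.24 over vector, with shRNA 1 and shRNA 2 in that order, and their part in the values of HSPA8 and HSPH1 was not tested. The fit to the knockdown arm alone called 5 of the 10 with shRNA 1 and 40.7% of all genes, adding HSPA1B (0.35), DNAJB1 (-0.20) and HSPB1 (-0.44). It called 6 of the 10 with shRNA 2 and 46.7% of all genes, adding HSPA1B (0.39), HSPE1 (0.39) and HSPB1 (-0.38). Comparisons with scramble and with vector share the hairpin libraries, and those of both hairpins share the control libraries.

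The 2 controls of the knockdown arm, both labelled as keeping p53, differed in 3 of the 10 genes. HSPA8 was 1.91-fold higher in scramble than in vector (0.93, SE 0.08, adjusted p 2.9e-05), HSPH1 1.62-fold higher (0.70, SE 0.11, adjusted p 0.0011) and HSPA1B 1.53-fold higher (0.61, SE 0.15, adjusted p 0.017). Among all genes 7.1% were called higher and 8.16% lower. HSPA1A (0.34), HSP90AA1 (0.06), HSP90AB1 (0.16), DNAJB1 (-0.10), HSPD1 (0.10), HSPE1 (0.23) and HSPB1 (-0.28) were not called. Of the 10 fibroblast markers, 6 were higher and 1 lower in scramble than in vector, with DCN at 2.22 and LUM at 1.44. The call of HSPA1B was lost when any 1 library of these groups was left out (adjusted p 0.072 to 0.12), and with the counts of HSPA1A and HSPA1B summed the difference was 0.45 (adjusted p 0.037). The fit to the knockdown arm alone called 6 of the 10 and 42.1% of all genes, adding HSPA1A (0.33), HSP90AB1 (0.15) and HSPB1 (-0.28). For HSPA8 the difference between the controls (0.93) was larger than either hairpin's difference from scramble (-0.22 and 0.25).

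The hairpins were also compared with each other, which uses neither control. HSP90AA1 was 1.56-fold higher with shRNA 1 than with shRNA 2 (0.64, SE 0.07, adjusted p 2.0e-04), and HSPA8 stood at 0.723 of its shRNA 2 level (-0.47, SE 0.08, adjusted p 0.0034). These were 2 of the 10, in a comparison that called 7.07% of all genes higher and 7.21% lower. DNAJB1 stood at -0.28 (adjusted p 0.14), and the fit to the knockdown arm alone called it (-0.29) with HSP90AA1 and HSPA8, and 38.8% of all genes. For HSPH1 (0.04, 95% interval -0.19 to 0.27), HSP90AB1 (-0.004, -0.20 to 0.19) and HSPD1 (-0.05, -0.21 to 0.11) the test was not passed in this fit or in that of the knockdown arm alone. The same held for HSPA1A (0.08), HSPA1B (-0.04), HSPE1 (-0.05) and HSPB1 (-0.06). Of the fibroblast markers, 1 was higher and 3 were lower with shRNA 1 than with shRNA 2, with DCN at -0.95 and LUM at -1.05.

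**Figure D5:**
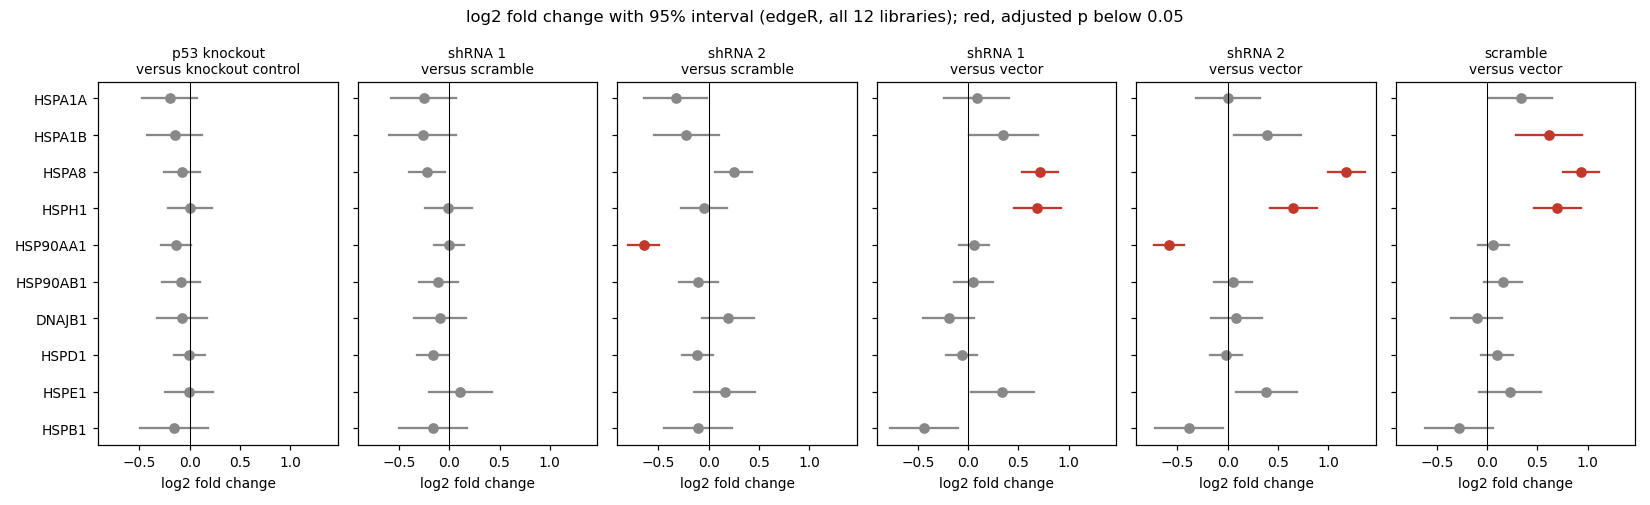
Log2 fold changes of the 10 heat shock genes with 95% intervals from the edgeR fit to all 12 libraries, in 6 comparisons; red points have an adjusted p below 0.05. HSP90AA1 is red on the left of no change with shRNA 2 against scramble (-0.65) and vector (-0.59), and HSPA8 and HSPH1 are red on the right in the 3 panels against vector.

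The other chaperone genes were counted within the knockdown arm as well. Of 91 tested genes in the 8 lists, 2 were higher and 1 lower with shRNA 1 against scramble (4.4% and 5.01% of all genes), and 3 were higher and 3 lower with shRNA 2 (3.58% and 4.15% of all genes). Against vector 3 were higher and 7 lower with shRNA 1 (5.78% and 7.26% of all genes), and 6 were higher and 8 lower with shRNA 2 (9.21% and 11.7% of all genes). For shRNA 2 against scramble and for the genes lower with shRNA 1 against vector the counts lie near the shares over all genes, and nothing is read from any of them about the lists. DNAJA1, a J-domain partner of HSPA8, was higher than vector with shRNA 1 (0.44), with shRNA 2 (0.46) and in scramble (0.40). HSPA4, a relative of HSPH1, was higher in scramble than in vector (0.39, adjusted p 0.0095). SUGT1, an HSP90 co-chaperone, was higher with shRNA 2 than in scramble (0.45) and vector (0.68), and lower with shRNA 1 than with shRNA 2 (-0.56). HSPB8 was lower with shRNA 2 than in scramble (-0.72) and vector (-0.81), as HSP90AA1 was. HSF1 was not called in any of these comparisons, with values from -0.20 to 0.09. EGR1, an immediate early gene, was lower with shRNA 1 than in scramble (-1.02) and higher with shRNA 2 (0.35), and its part in the values of the heat shock genes was not tested.

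The difference between the knockout effect and the mean effect of both hairpins against scramble was tested directly. The hairpins differed from each other for HSPA8 (-0.22 with shRNA 1 and 0.25 with shRNA 2) and HSP90AA1 (-0.01 and -0.65). For these genes the mean describes neither hairpin. None of the 10 genes was called by edgeR, DESeq2 or limma-voom, in a comparison that called 0.643% of all genes higher and 0.456% lower. In edgeR 0 of the 10 had an unadjusted p below 0.05, against 1957 of all 13365 genes tested. HSP90AA1 stood at 0.19 (95% interval -0.01 to 0.39, adjusted p 0.37), and the other 9 stood between -0.14 and 0.14. Of the HSP70 machinery HSPA1A stood at 0.09, HSPA1B at 0.09, HSPA8 at -0.09, HSPH1 at 0.03 and DNAJB1 at -0.13. HSP90AB1 stood at 0.02, HSPD1 at 0.14, HSPE1 at -0.14, HSPB1 at -0.02 and HSF1 at -0.02. HSPB1 had the widest interval (-0.47 to 0.42).

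The 10 profiles over the 12 libraries were compared by the root-mean-square difference of log2(CPM + 1), each profile centred on its own mean; these differences are given as a description, and all genes share the same libraries. HSPA1A and HSPA1B were nearest to each other (0.13), then DNAJB1 and HSPD1 (0.15), HSPH1 and HSPE1 (0.20) and HSP90AB1 and HSPB1 (0.23). HSPA1B and HSPB1 were furthest apart (1.26). HSP90AA1 and HSP90AB1 differed by 0.89. Among 10073 other protein-coding genes, that nearest to HSPA1A was PNP (0.13), to HSPA1B TIPIN (0.19) and to HSPA8 IL11 (0.18). For HSPH1 it was GPRIN1 (0.17) and for HSPE1 MCM6 (0.13), which was also next for HSPH1 (0.17). For HSP90AA1 they were KRT80 (0.13) and then HSPB8 (0.15), the only gene of the chaperone lists among those named by this measure. HSP90AB1 was nearest to DAP3 (0.046), DNAJB1 to SRSF9 (0.060), HSPD1 to TMEM70 (0.064) and HSPB1 to ARL6IP4 (0.036). The median difference to all 10073 genes was 0.35 for HSP90AB1 and 0.38 for HSPB1, against 1.26 for HSPA1B. Nearest values of different members are thus not to be compared with each other.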

How the data were processed

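RNA was measured in 12 libraries of LMSU cells. The authors deposited raw read counts per gene symbol, with no normalisation. The submitters' processing notes list bcl2fastq, STAR 2.5 and hg19. How reads were assigned to genes (mode, strand, annotation) is not given in the sources used here, so reads of overlapping genes or near-identical copies may be shared.

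The main test was run in edgeR 4.0.16 under R 4.3.3: filterByExpr (minimum count 10), TMM scaling, 1 coefficient per group over all libraries (6 residual degrees of freedom) and the two-sided quasi-likelihood F test. Benjamini-Hochberg adjustment covered the 13365 genes of each comparison, and a gene was called below 0.05. CPM and log2 differences printed come from this fit. Alternatives used DESeq2 1.42.0, limma-voom (limma 3.58.1), other scalings and filters, each arm alone, a replicate block and each library left out. The procedure was tested on simulated data. Members, lists, tests and alternatives were chosen with earlier results of these data known.

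All 10 members were named in every comparison, HSF1 always, and from each list at most 4 called genes with the smallest adjusted p; profile neighbours were protein-coding genes with a mean of at least 5 CPM. The level of the targeted gene is not reported here, and MUC5AC was not analysed here. Figures were drawn with matplotlib 3.10.9.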

Additional observations from a re-analysis of the deposited data

Results flagged for a closer look

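The effects of the hairpins on a pair of heat shock genes differed from each other when the difference itself was tested (shRNA 1 effect minus shRNA 2 effect, edgeR quasi-likelihood test over all genes). For HSPA8, the constitutive HSP70, the difference was -0.47 on the log2 scale (adjusted p 0.0034): both libraries with shRNA 1 lay below both with shRNA 2. Against scramble HSPA8 passed the test with neither hairpin (-0.22, adjusted p 0.12, and 0.25, adjusted p 0.096). Against vector it was higher with both (0.71 and 1.18), and in scramble it was higher than in vector too (0.93). For HSP90AA1, the inducible HSP90, the difference was 0.64 (adjusted p 2.0e-04): both libraries with shRNA 2 lay below all others, and shRNA 1 stood at -0.01 against scramble.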

How the results depend on the processing

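Counts of called members stayed within 1.5 times of the main value with DESeq2, limma-voom, other scalings, other filters, a stricter threshold of 0.01 and the HSPA1A and HSPA1B counts summed. With library totals alone the median of all genes between the arms moved from 0.02 to 0.20, and HSPB1 there stood at 0.15. In the knockout, HSPA1A stood at -0.39 without the second knockout control library and at 0.03 without the first. The count of called members changed with the library left out, and it is not read because 1 control library remained. The difference of HSPB1 between the arms reversed to 0.23 without the second knockout control library and was -0.36 without the first. Outside the knockout, leaving out 1 library changed the count of called members between the arms and in scramble against vector only. The shares of all genes called in these fits are not given here, so nothing is read from these counts.

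With the libraries of the knockdown arm alone, called members numbered 4 (shRNA 1 against scramble), 5 (shRNA 2 against scramble), 5 (shRNA 1 against vector), 6 (shRNA 2 against vector) and 6 (scramble against vector). In the same order, 33.2%, 31.5%, 40.7%, 46.7% and 42.1% of all genes were called. The labels state no pairing, and deviations of same-numbered libraries correlated at -0.65 (knockout control and knockout) to 0.25. A replicate block over all libraries changed no count: 0 in the knockout, 0 and 1 against scramble, 2 and 3 against vector, 2 between the hairpins, 3 between the controls and 9 between the arms. A replicate block in the knockdown arm alone, added after the data were seen, gave 4, 4, 5, 6 and 6. The share of all genes called with that block is not given here, so nothing is read from its counts. A crossed block in the knockout arm alone, also added then, called 0 members and 72 genes in all. With 2 libraries a group, small differences between groups were not detectable in the knockout arm, where the spread was largest.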
